A study of Mus musculus with 17 samples.

Results

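Of 17 RNA-seq libraries from mouse hippocampus, 3 held almost no RNA of the choroid plexus, the secretory epithelium that lines the brain ventricles beside the hippocampus. These 3 libraries, 1 from each of 3 genotypes, were chosen by the level of 5 marker genes of that epithelium: Ttr, Folr1, Kl, Kcnj13 and Aqp1. In each genotype the library with the lowest mean log2(RPKM + 0.1) of the 5 genes was taken, where RPKM is reads scaled by gene length and by the library's total. The other 14 libraries served as the comparison. Because the libraries were selected on these values, every difference between the 3 and the 14 is given here as a description. Calls from a count model are printed for this comparison, but they describe it only and are support for nothing. Tests to be read as such are given for slopes within the 14 others and for genotype comparisons with all 17 libraries. They are of genes other than the 5 markers. In the slopes the score made of the markers is the term tested, and the genotype comparisons with 17 libraries do not hold it unless stated. Genotype fits that leave out the 3 libraries or hold the score use the choice itself, and are given as a description.

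The choroid plexus is a sheet of cuboidal epithelial cells over a core of fibroblasts, leaky capillaries and immune cells. It makes the cerebrospinal fluid by moving ions and water into the ventricle, and it secretes carrier proteins, transthyretin (Ttr) above all. Its cells are joined by tight junctions that form the barrier between blood and cerebrospinal fluid. A frond of it lies along the hippocampal fimbria, so that a dissected hippocampus can come with or without it.

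Each library came from poly-A RNA of 1 mouse, and the labels give no treatment. WT mice (n = 6) were C57BL/6J. Dp16 mice (n = 6), a model of Down syndrome, carry an extra copy of a segment of chromosome 16. Dp16_2xIFNRs mice (n = 5) carry that duplication too, but have the interferon receptor genes back at their usual number of copies. The mice were 17.1 to 18.0 weeks old and of both sexes, and the strain background of the duplicated mice is not given in the sources used here. The low-marker libraries were WT replicate 6 (male, 18.0 weeks), Dp16 replicate 6 (male, 18.0 weeks) and Dp16_2xIFNRs replicate 5 (female, 17.7 weeks). Each of these 3 shares a part of its mouse identifier with a library that was not low, and the first part is the same in WT replicate 6, Dp16 replicate 6 and Dp16 replicate 4, which was not low. The labels do not say what the parts stand for. Total counts were 30382648 to 33148281 over the 17 libraries and 31647125 to 32491736 in the low-marker libraries, within the range of the others. The labels give every mouse its own identifier, and p-values measure the spread between these mice.

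All 5 markers were low together in the same 3 libraries. Ttr, the thyroid hormone and retinol carrier, stood at 24.8 RPKM in the low-marker library of WT, 30.4 in that of Dp16 and 54.2 in that of Dp16_2xIFNRs, against 1708 to 5145 RPKM (median 3093) in the 14 others. Folr1, the folate receptor of the epithelium, stood at 0.138, 0.352 and 0.682 RPKM in the same order, against 7.72 to 27.8 (median 17.4). Kcnj13, an inwardly rectifying potassium channel, stood at 0.392, 0.194 and 0.697 RPKM, against 13.7 to 29.3 (median 21.3). Folr1 and Kcnj13 were under 1 RPKM in each low-marker library, while Ttr was not. Aqp1, the water pore of the ventricle-facing membrane, stood at 0.237, 0.129 and 0.277 RPKM, against 5.05 to 13.1 (median 8.55). Kl, which encodes the klotho protein, kept 4.18, 3.60 and 4.14 RPKM against 20.9 to 45.2 (median 31.8), and had the smallest difference of the 5. No low-marker library overlapped the 14 others in any of the 5 genes. The score, the mean over the 5 genes on the log2 scale, was 0.41 in WT replicate 6, 0.36 in Dp16 replicate 6 and 1.15 in Dp16_2xIFNRs replicate 5. It ran from 4.86 to 6.20 in the 14 others, so that a gap of 3.71 parted the highest chosen library from the lowest library left. Each of the 5 genes alone picked the same 3 libraries, as did a pseudocount of 1.

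On build GRCm38 (GENCODE release 21 positions) Ttr lies on chromosome 18 at 20665280 to 20674321, and Folr1 on chromosome 7 at 101858331 to 101870788. Kl lies on chromosome 5 at 150952607 to 150993817, Kcnj13 on chromosome 1 at 87386363 to 87394729 and Aqp1 on chromosome 6 at 55336432 to 55348555.

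**Figure D1:**
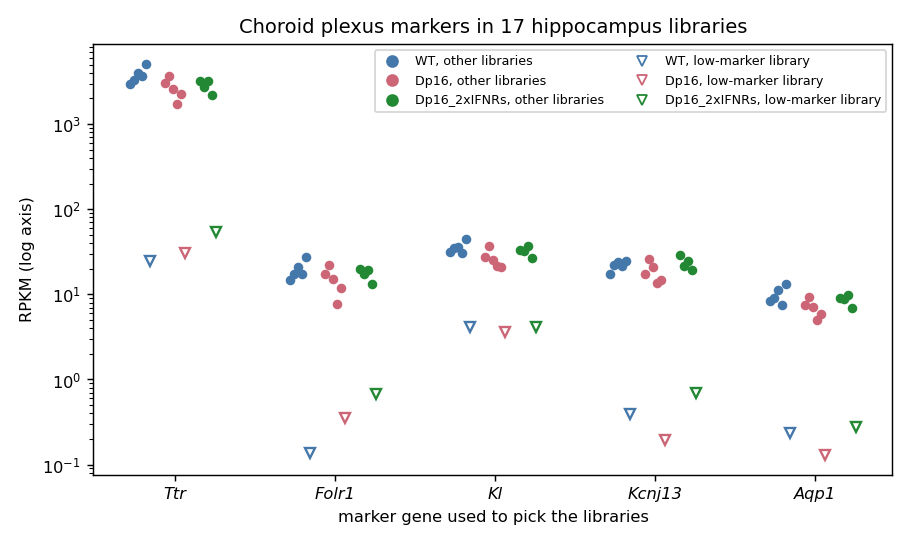
RPKM of the 5 marker genes (log axis) in each of the 17 libraries, coloured by genotype, with open triangles for the 3 low-marker libraries. The triangles lie below every filled point of their gene, with Ttr at 24.8 to 54.2 RPKM against 1708 or more.

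Ttr was the largest single part of what was missing. It took 0.203% to 0.610% of all counts in the 14 other libraries (median 0.367%) and 0.00294% to 0.00643% in the low-marker ones. The genes called lower in the count model described below and the markers together made a set of 597. They were picked for being lower, so the shares given here are of that set alone. Added over this set, the other libraries held 9543 CPM (counts scaled to a common library total, with TMM factors) more than the low-marker ones. Ttr gave 3624 CPM (37.97%) of that. Enpp2, which encodes the secreted lysophospholipase autotaxin, gave 1468 CPM (15.4%). The next genes were far behind, with 139.5 CPM for Kl, 122 for the cation channel gene Trpm3, 106 for Clic6 and 77.8 for Ace. The 154 genes of the set that were at least 4-fold lower took 0.396% to 1.03% of counts in the 14 others (median 0.687%) and 0.0313% to 0.0468% in the 3. Fewer cells of a type and less RNA per cell cannot be told apart in such bulk samples.

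In a count model with genotype and sex (edgeR quasi-likelihood test), 592 of 18978 genes were lower in the low-marker libraries at a Benjamini-Hochberg adjusted p under 0.05 (3.12%), and 10 were higher (0.0527%). Nothing is read from these counts, since the libraries were selected on genes of the same cells. Of the 592, 42 were over 16-fold lower, 107 were 4- to 16-fold lower, 160 were 2- to 4-fold lower and 283 were less than 2-fold lower. All 592 had the same sign in each genotype. Without comparing through a model, 522 genes (2.75%) were lower in all 3 low-marker libraries than in all 14 others. Without WT replicate 6 the count of 592 was 357, and without Dp16_2xIFNRs replicate 5 it was 360, both fits having fewer low-marker libraries. The genes of 6 lists of choroid plexus genes, set up by role and apart from the 5 markers, numbered 127, and 122 of them passed the filter on low counts. Of those 122, 83 were among the 592, none was among the 10, and 80 were lower in all 3 low-marker libraries than in all 14 others. Their median log2 difference was -1.12, beside a median of -0.00 over all tested genes. The differences of single genes below are log2 values from the count model, low-marker minus other, with their standard error.

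**Figure D2:**
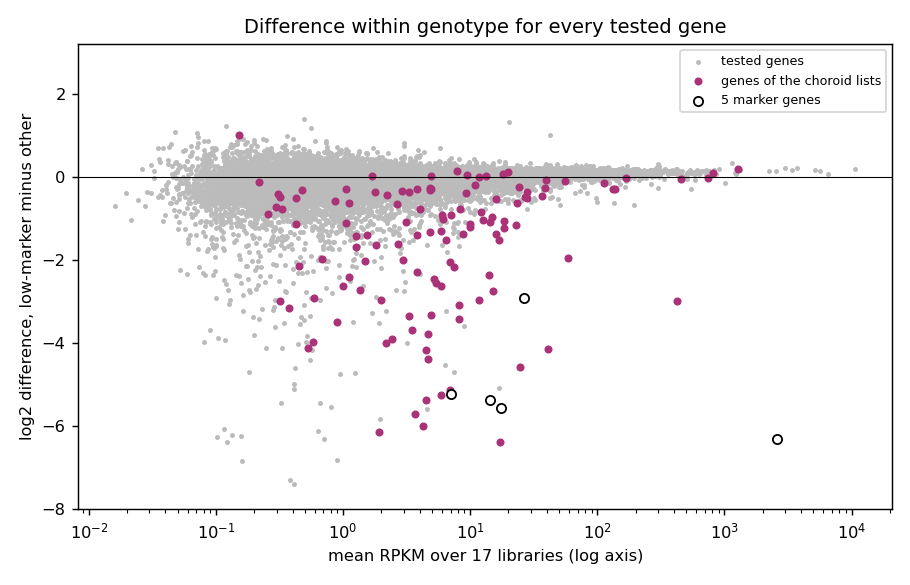
Log2 difference between low-marker and other libraries within genotype (vertical axis) against mean RPKM over 17 libraries (horizontal log axis), 1 point per tested gene, with choroid list genes in purple and the 5 marker genes as open circles. Most genes lie near 0, and the points below -4 include Kcne2 at -6.39, Slc4a5 at -6.00 and Clic6 at -4.58.

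Among carriers and secreted proteins, 18 of 23 tested genes were called lower, with a median of -1.16. Enpp2 stood at 47.96, 58.9 and 69.6 RPKM in the low-marker libraries of WT, Dp16 and Dp16_2xIFNRs, against 310.3 to 673 (median 510.3) in the others, a difference of -3.00 ± 0.19. Ecrg4, which encodes the secreted peptide precursor augurin, stood at 1.17, 2.42 and 4.10 RPKM against 28.3 to 77.7 (median 50.7), a difference of -4.16 ± 0.31. The groups did not overlap in either gene. Igfbp2, which binds insulin-like growth factors, stood at 16.8, 14.3 and 18.6 RPKM against 42.1 to 101.6 (median 64.7), a difference of -1.95 ± 0.18. F5, coagulation factor V, differed by -5.14 ± 0.28 and Wfdc2, a secreted protease inhibitor-like protein, by -5.71 ± 0.54, the latter from 6 counts in all 3 low-marker libraries. Some of the most abundant secreted proteins of the list were not lower. Cst3 (cystatin C), Apoe (apolipoprotein E) and Clu (clusterin), which glia also make, differed by 0.20 ± 0.10, -0.02 ± 0.09 and -0.06 ± 0.08, and their groups overlapped.

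Solute transporters divided in the same way, with 21 of 33 called lower and a median of -0.54. Slc4a5, a sodium bicarbonate cotransporter of the ventricle-facing membrane, stood at 0.0850, 0.0561 and 0.0806 RPKM against 3.15 to 6.89 (median 5.20), a difference of -6.00 ± 0.29. Steap1, a metalloreductase, differed by -5.36 ± 0.37 and Abca4, a retinoid transporter, by -4.01 ± 0.36. Slc4a2, the anion exchanger of the blood-facing membrane, stood at 5.91, 6.80 and 7.05 RPKM against 11.9 to 24.5 (median 18.0), a difference of -1.38 ± 0.14. Slc12a2, the sodium-potassium-chloride cotransporter NKCC1, stood at 13.5 to 17.7 RPKM against 19.1 to 30.5 (median 24.2), a difference of -0.63 ± 0.11. The groups did not overlap in these genes, and the difference ran from -6.00 to -0.63. Slc4a10, a bicarbonate transporter that neurons express as well, differed by -0.11 ± 0.06.

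Of 8 tested channel genes, 6 were called lower, with a median of -2.44. Kcne2, the potassium channel subunit of the epithelium, stood at 0.0704, 0.296 and 0.340 RPKM against 13.4 to 31.6 (median 20.6), a difference of -6.39 ± 0.33, the lowest value in the lists. Clic6, a chloride intracellular channel family member, stood at 0.612, 1.21 and 1.79 RPKM against 18.6 to 44.4 (median 27.9), a difference of -4.58 ± 0.26. Tmem72, a transmembrane protein with no well known role, differed by -6.15 ± 0.31. Trpm3 kept 6.53, 7.39 and 7.50 RPKM against 12.3 to 19.2 (median 16.3), a difference of -1.08 ± 0.11. Its groups did not overlap, yet all 3 low-marker libraries still expressed it. Kcna1, a neuronal potassium channel put in the list, differed by 0.07 ± 0.10.

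Receptors and signalling genes were called lower in 16 of 20, with a median of -1.18. Prlr, the prolactin receptor, stood at 0.296, 0.314 and 0.460 RPKM against 3.06 to 10.1 (median 5.55), a difference of -3.79 ± 0.24. Ace, the angiotensin-converting enzyme, stood at 2.39, 2.58 and 2.53 RPKM against 12.4 to 22.7 (median 17.6), a difference of -2.75 ± 0.16. Htr2c, the serotonin 2C receptor, stood at 8.82, 7.63 and 7.62 RPKM against 13.9 to 18.6 (median 16.4), a difference of -0.96 ± 0.09. The spread within the 3 low-marker libraries was small in Ace and Htr2c, and both groups stayed apart. Car12 and Car14, membrane carbonic anhydrases, differed by -1.24 ± 0.12 and -1.13 ± 0.16, while the cytosolic enzyme Car2, abundant in oligodendrocytes, differed by -0.14 ± 0.09 with overlapping groups.

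Junction, keratin and matrix genes had 17 of 21 called lower and a median of -2.14. Cldn2, the pore-forming claudin of the epithelium, stood at 0.143, 0.222 and 0.145 RPKM against 3.64 to 11.4 (median 7.22), a difference of -5.26 ± 0.31. Cldn1, a sealing claudin, differed by -1.40 ± 0.20, Krt18, a keratin of simple epithelia, by -3.70 ± 0.32, and the collagen genes Col8a1, Col8a2 and Col9a3 by -4.16 ± 0.23, -3.32 ± 0.23 and -2.36 ± 0.23. Ezr, a linker of membrane and actin also found in glia, differed by -0.35 ± 0.08. The transcription factor list had 5 of 17 called lower and a median of -0.64. Otx2, a homeobox factor of the choroid epithelium, stood at 0.166, 0.277 and 0.316 RPKM against 3.02 to 7.27 (median 5.59), a difference of -4.37 ± 0.28. Lmx1a differed by -3.97 ± 0.40 and Rbm47, an RNA-binding protein put in this list, by -3.50 ± 0.28. Rfx3, a ciliary gene regulator that neurons share, differed by -0.01 ± 0.07.

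**Figure D3:**
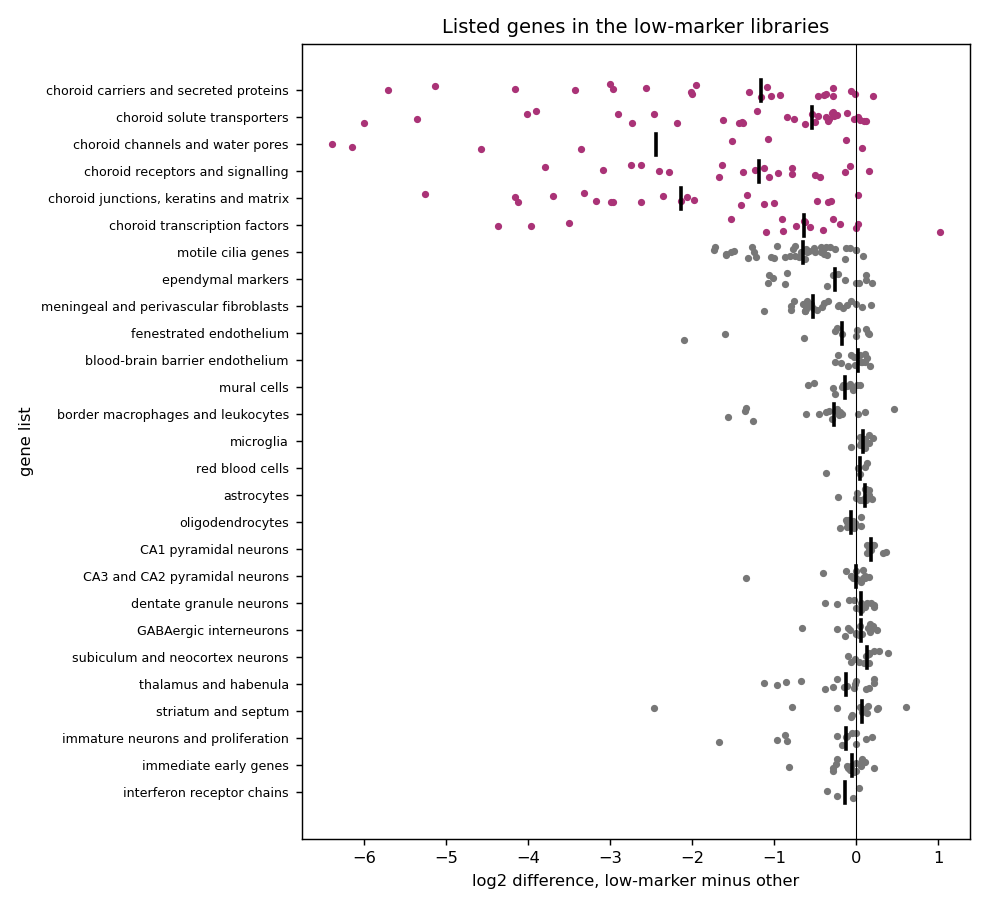
Log2 differences between low-marker and other libraries for the tested genes of each list, 1 point per gene, with the list's median as a black bar. Choroid lists are in purple, with medians from -0.54 to -2.44, and the 7 lists of hippocampal neurons and glia have medians from -0.07 to 0.18.

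Some genes outside the lists were called lower too, while 9579 of all 18978 tested genes had a negative difference. With clone and Gm names and genes under a mean of 1 CPM left out, the 10 most negative were Tmprss11a, Pon1, Defb11, Sult1c2, Wdr72, Cltrn, Mfrp, Prr32, Col17a1 and Slc28a3, of which 4 had 3 counts or fewer in the low-marker libraries together. Mfrp, a membrane frizzled-related protein, stood at 0.230, 0.284 and 0.474 RPKM against 5.58 to 11.5 (median 9.03), a difference of -4.70 ± 0.23. Defb11, a beta-defensin, had 3 counts in the low-marker libraries and 783 in the others, a ratio of rates of 56.5 (95% interval from counting alone 19.3 to 274.8). Pon1, the paraoxonase of plasma lipoproteins, had 1 count and 573 counts, a ratio of 124 (22.2 to 4912). The genes that were higher differed by little: Pcdhb8, a clustered protocadherin, by 0.65 ± 0.17, Pcdh17, another protocadherin, by 0.29 ± 0.07, and Tceal5 by 0.27 ± 0.07. Adcy2, a neuronal adenylyl cyclase, stood at 37.1, 36.5 and 35.5 RPKM against 28.7 to 34.8 (median 32.2), a difference of 0.21 ± 0.05. The groups did not overlap in Adcy2, but did in Pcdhb8 and Pcdh17.

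RefSeq promoters, windows around a transcript start on build GRCm38.p6, were searched for TAATCC, the core letters that OTX and related homeodomain proteins bind, on both strands (GGATTA on the other), because Otx2 was among the genes that were most reduced. Of 46 genes over 16-fold lower, markers included, 34 had a promoter in the table, and 8 of those (23.5%) held the letters in at least 1 start's window. The share was 7.15% over the 13075 tested genes with a promoter, 9.57% in the choroid lists (9 of 94) and 9.05% in the genes called lower (40 of 442). TGTTTAC, the forkhead core (GTAAACA on the other strand), was in none of the 34 and in 3.23% of all. Genes with several starts have more windows, and a match is a run of letters, not a site shown to be used. A few promoters are printed 5′ to 3′ on the gene's strand with TAATCC or GGATTA in capitals, to show where matches stood and, in Kcnj13, a marker without one. They lie at chr9:44101520-44101819 (Mfrp, plus strand), chr3:122044210-122044509 (Abca4, plus), chrX:164089937-164090236 (Cltrn, plus, 1 of its windows), chr14:48665060-48665359 (Otx2, minus, 1 of its 4 windows) and chr1:87394680-87394979 (Kcnj13, minus).
Mfrp: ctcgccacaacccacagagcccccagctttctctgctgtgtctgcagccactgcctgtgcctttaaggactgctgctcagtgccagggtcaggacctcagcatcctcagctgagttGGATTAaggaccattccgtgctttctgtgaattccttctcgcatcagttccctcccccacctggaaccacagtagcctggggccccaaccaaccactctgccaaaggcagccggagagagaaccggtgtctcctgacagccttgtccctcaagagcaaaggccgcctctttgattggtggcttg
Abca4: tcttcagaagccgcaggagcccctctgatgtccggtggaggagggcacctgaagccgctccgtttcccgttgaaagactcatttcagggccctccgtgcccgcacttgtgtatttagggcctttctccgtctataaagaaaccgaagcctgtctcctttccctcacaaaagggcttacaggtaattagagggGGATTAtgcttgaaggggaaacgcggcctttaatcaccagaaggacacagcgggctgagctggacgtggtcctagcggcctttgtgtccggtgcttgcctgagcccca
Cltrn: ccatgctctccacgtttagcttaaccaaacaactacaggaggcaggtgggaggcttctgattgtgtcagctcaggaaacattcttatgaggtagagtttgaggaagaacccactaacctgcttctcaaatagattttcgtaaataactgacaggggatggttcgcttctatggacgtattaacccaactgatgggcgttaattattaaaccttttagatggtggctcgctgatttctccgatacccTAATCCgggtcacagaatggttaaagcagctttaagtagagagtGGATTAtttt
Otx2: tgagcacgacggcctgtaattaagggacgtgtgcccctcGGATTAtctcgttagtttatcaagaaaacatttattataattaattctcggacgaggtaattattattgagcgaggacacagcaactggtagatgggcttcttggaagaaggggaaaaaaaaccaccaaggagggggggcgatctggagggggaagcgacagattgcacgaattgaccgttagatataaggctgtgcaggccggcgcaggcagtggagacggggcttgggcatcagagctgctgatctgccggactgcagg
Kcnj13: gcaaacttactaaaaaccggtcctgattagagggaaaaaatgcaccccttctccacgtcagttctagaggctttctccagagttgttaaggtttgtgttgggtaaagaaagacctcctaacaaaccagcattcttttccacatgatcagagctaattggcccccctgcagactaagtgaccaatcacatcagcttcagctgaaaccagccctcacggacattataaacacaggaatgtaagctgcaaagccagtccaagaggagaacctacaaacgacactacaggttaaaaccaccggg

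Choroid genes picked for being strongly lower kept a few percent of their level in the low-marker libraries, and the source of this rest was not tested. That choice bounds the percentages, so they do not measure how much choroid plexus RNA was left. Less reduced genes such as Enpp2 and Ace were outside the set. Over the 16 choroid genes, markers included, that were at least 16-fold lower and had a median of at least 1 RPKM in the others, each library's level was set against the median of its own genotype's other libraries. The median was 1.79% in WT replicate 6 (range 0.371% to 5.31%), 2.62% in Dp16 replicate 6 (0% to 6.51%) and 3.27% in Dp16_2xIFNRs replicate 5 (1.38% to 8.45%). Dp16_2xIFNRs replicate 5 was the highest of the 3 in Ttr, Folr1, Kcnj13, Kcne2, Clic6, Enpp2 and Ecrg4, and WT replicate 6 the lowest in Kcne2, Clic6, Enpp2 and Ecrg4. Each of these is 1 library, with no replicate of its own.

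Markers of cell types near the choroid plexus were lower in part. Over all tested genes 3.12% were called lower. Of 40 tested genes of motile cilia, 17 were called lower, with a median of -0.65. Rsph1, a radial spoke protein of cilia, stood at 1.54, 2.87 and 3.22 RPKM against 4.62 to 9.34 (median 6.83), a difference of -1.32 ± 0.22, whereas Fam183b, another cilia gene, differed by 0.08 ± 0.17. Ependymal cells, which line the ventricles and bear the same cilia, had 1 of 14 genes called lower beyond those of the choroid lists, Ak7, an adenylate kinase of cilia, at -1.02 ± 0.25. Fibroblasts of the meninges and vessels had 3 of 25, namely Bgn, Col1a2 and Slc6a20a, with a list median of -0.53, and their summed level was 92.7 to 129.7 RPKM against 101.8 to 191.6. Fenestrated endothelium, the leaky kind of the choroid stroma, had 3 of 11. The 3 called were Plvap, the diaphragm protein of such capillaries, at -0.64 ± 0.14, Esm1 at -1.60 ± 0.33 and Exoc3l2 at -2.10 ± 0.38. Only 7 of the 11 had a negative difference, and the list median was -0.18. The summed level of the 11, 197.6 to 207.3 RPKM, lay within the 178.4 to 216.5 of the other libraries. None of the 14 genes of blood-brain barrier endothelium was called outside the choroid lists (edgeR; 3 at an unadjusted p under 0.05, 1 by DESeq2, 0 by limma-voom). Counts of 1 of 14 and 0 of 14 are near the share over all genes, and nothing is read from them. The part of these cell types in the differences was not tested.

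Immune genes of the brain's borders included 4 of 18 called lower, all of antigen presentation by MHC class II: H2-Aa, H2-Ab1, H2-Eb1 and Cd74, the invariant chain. Cd74 stood at 2.46, 2.67 and 4.22 RPKM against 4.62 to 15.7 (median 7.57), a difference of -1.34 ± 0.20, with no overlap. H2-Aa, H2-Ab1 and H2-Eb1 differed by -1.26 ± 0.22, -1.57 ± 0.21 and -1.36 ± 0.17. H2-Ab1 at 2.37 RPKM in Dp16_2xIFNRs replicate 5 lay within the range of the 14 others, all of whose values below it came from WT. Genes of microglia, the macrophages of the tissue itself, had 0 of 14 called (3.12% of all genes were called lower) by edgeR, DESeq2 or limma-voom, 0 at an unadjusted p under 0.05 by edgeR and a median of 0.08.

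Defining genes of the labelled tissue, the hippocampus, were present in the low-marker libraries. Over 7 lists of its neurons and glia (pyramidal neurons of CA1 and of CA3 and CA2, dentate granule neurons, interneurons, astrocytes, oligodendrocytes and microglia) 1 of 94 tested entries was called lower and 0 higher, where 1 gene stands in more than 1 list and 3.12% of all genes were called lower. The called gene was Coch of the CA3 and CA2 list, at 1.87, 1.17 and 1.26 RPKM against 2.05 to 6.44 (median 3.93), with no overlap. Prox1, the factor that marks dentate granule neurons, stood at 9.40, 10.7 and 13.3 RPKM against 8.76 to 12.2 (median 11.2). Wfs1, a CA1 marker, stood at 41.8, 45.1 and 41.8 RPKM against 33.3 to 45.0 (median 38.9), and Slc1a2, the astrocyte glutamate transporter, at 309.7, 330.3 and 317.6 against 229.8 to 326.5 (median 295.7). Prox1, Wfs1 and Slc1a2 overlapped between the groups. The 9 CA1 genes all had a positive difference, from 0.13 to 0.36, and none was called. The proliferation list had 1 of 13 genes called lower, Cdk1, with a list median of -0.13. The striatal list had 1 of 13, Ppp1r1b, with a median of 0.07. Thalamus had 0 of 16 called by edgeR, 2 at an unadjusted p under 0.05 and 1 by DESeq2. Nothing is read from such single calls. Ppp1r1b, which encodes the phosphoprotein DARPP-32, stood at 18.2, 16.2 and 16.3 RPKM against 23.0 to 45.1 (median 29.7), a difference of -0.78 ± 0.13.

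Within the 14 libraries that were not chosen, genes were set against the same 5-gene score. There the score spanned 1.33 log2 units, and the slope of each gene on it was tested with genotype and sex in the model (edgeR quasi-likelihood test). A slope of 1 means that a gene moved in proportion to the markers. A positive slope was called in 54 of 19096 genes (0.283%), and a negative slope in 0 (edgeR; 410 negative at an unadjusted p under 0.05, 11 called by DESeq2, 0 by limma-voom). Of the choroid list genes, which were chosen with results of these data known and are no independent support, 33 of 123 had a called positive slope, 110 had a slope above 0, and the median was 0.56, beside -0.00 over all genes. Clic6 had a slope of 1.05 ± 0.09 (adjusted p = 1.64e-05) and Kcne2 one of 1.03 ± 0.11 (adjusted p = 0.000322). Both moved in proportion to the markers within their error. Slc4a5 had a slope of 0.93 ± 0.11 (adjusted p = 0.000394), Tmem72 of 0.89 ± 0.10 (0.000322), Enpp2 of 0.88 ± 0.10 (0.000324) and Otx2 of 0.92 ± 0.16 (0.0157). The slope was below 0.8 in some genes: Ace at 0.74 ± 0.08 (adjusted p = 0.000322), Slc4a2 at 0.70 ± 0.09 (0.00194) and Trpm3 at 0.50 ± 0.10 (0.0355).

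By role, positive slopes were called in 9 of 23 carriers, 9 of 33 transporters, 4 of 8 channels, 4 of 20 receptors, 6 of 21 junction genes and 1 of 18 transcription factors, the last being Otx2. Outside the lists 21 genes had a called slope, and 20 of them were also called lower in the 3 low-marker libraries (3.12% of all genes were). Both comparisons rest on the same markers, so this overlap is no independent support. Mfrp had a slope of 0.84 ± 0.10 (adjusted p = 0.000716), Drc7, a dynein regulator of motile cilia, one of 1.17 ± 0.15 (0.00106), and Wdr72 the steepest named one, 1.44 ± 0.26 (0.0251). Ppp1r1b, known best from striatal neurons, had a slope of 0.71 ± 0.09 (0.000875), and Ifi27, an interferon-inducible gene named after its value was seen, one of 0.68 ± 0.12 (adjusted p = 0.0181). None of the 40 cilia genes had a called slope by edgeR or limma-voom, although 36 were above 0, 18 had an unadjusted p under 0.05 and DESeq2 called 2. The MHC class II genes had slopes of 0.44 to 0.69 with no call, Cd74 at 0.67 ± 0.26 (adjusted p = 0.574). Of the 94 entries of the 7 hippocampal lists 0 were called by edgeR (9 at an unadjusted p under 0.05, 1 by DESeq2, 0 by limma-voom). All 20 immediate early genes had a slope below 0, with a median of -0.28 and 0 called by any of the 3 tools (1 at an unadjusted p under 0.05 by edgeR). Over all 19096 genes, 9446 had a slope above 0. The 20 genes were measured in the same libraries and are not 20 separate observations. The count of 54 was 13 without WT replicate 5, which had the highest score, 19 without Dp16 replicate 2 and 31 without Dp16 replicate 4, which had the lowest. The count of 33 choroid genes was 10 without WT replicate 5 and 13 without Dp16 replicate 2.

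**Figure D4:**
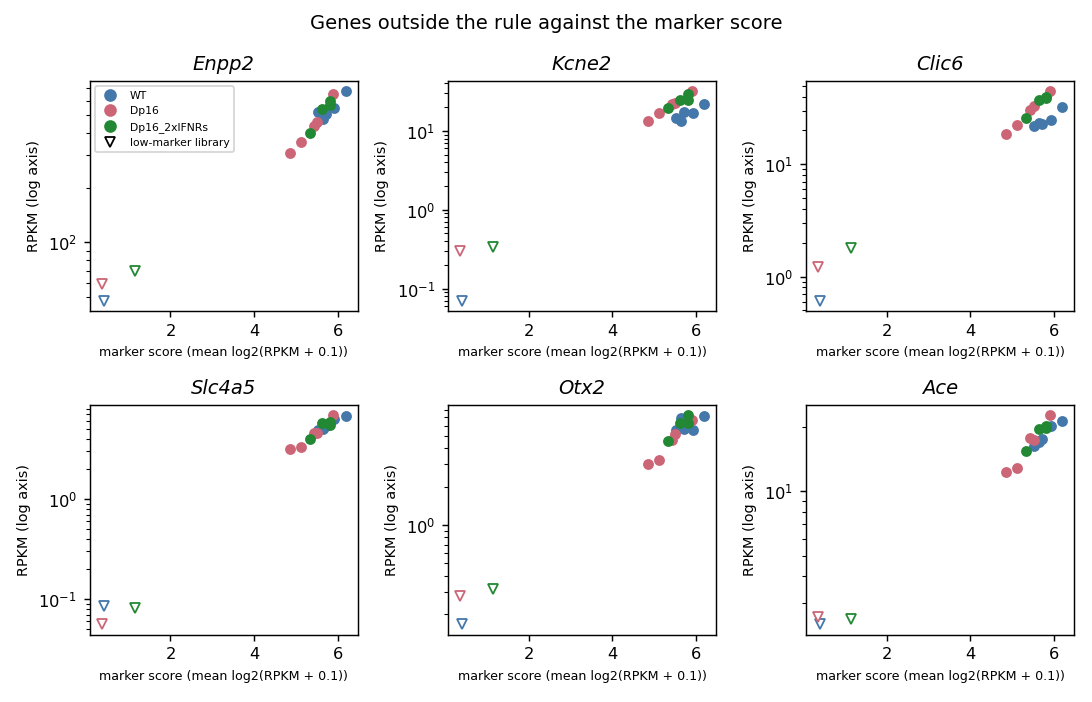
RPKM (log axis) of 6 choroid plexus genes outside the rule against the marker score, 1 point per library, coloured by genotype, with the low-marker libraries as open triangles. In all 6 panels the triangles lie below every filled point, such as Kcne2 at 0.0704 to 0.340 RPKM against 13.4 or more.

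The genotype comparisons were made with and without the low-marker libraries. With all 17 libraries, 1 of 122 choroid genes other than the markers differed between Dp16 and WT (0.537% of all genes were called), and 2 of 122 between Dp16_2xIFNRs and WT (0.98% of all genes). Without the 3 libraries the counts were 2 of 123 (0.503% of all genes) and 4 of 123 (0.832%). With the score as a covariate over 17 libraries they were 3 of 122 (0.658%) and 8 of 122 (1.71%). The median standard error of a choroid gene, markers included, for Dp16 against WT was 0.288 with all libraries, 0.145 without the 3 and 0.0975 with the score, and a smaller error follows from how the 3 were chosen. These comparisons share libraries and are not independent of each other. Slc5a5, the sodium iodide symporter, was called in each, at 0.73 ± 0.09 in Dp16 against WT (adjusted p = 8.95e-05) with 17 libraries. Though a member of the choroid lists, Slc5a5 was not lower in the low-marker libraries. Its 6.98, 10.6 and 10.4 RPKM there lay within the range of the others of each genotype. The second gene called in Dp16_2xIFNRs against WT with 17 libraries was Slc6a12, described below.

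Kcne2 and Clic6 lie on chromosome 16, at 92292389 to 92298129 and 92485736 to 92541243 (GRCm38), inside the duplicated segment. With all 17 libraries Clic6 in Dp16 against WT differed by 0.20 ± 0.68 (adjusted p = 0.951) and Kcne2 by 0.30 ± 0.75 (0.928). Leaving out the low-marker libraries narrowed the errors but gave no call, with Clic6 at 0.22 ± 0.17 (adjusted p = 0.676) and Kcne2 at 0.32 ± 0.17 (0.55). With the score in the model, both were higher in Dp16, Clic6 by 0.66 ± 0.06 (adjusted p = 1.14e-06) and Kcne2 by 0.89 ± 0.09 (3.42e-06). In Dp16_2xIFNRs against WT they were higher by 0.64 ± 0.06 (adjusted p = 2.51e-06) and 0.72 ± 0.09 (8.92e-05). In the 14 other libraries alone with the score, an alternative chosen after seeing the data, Clic6 was higher in Dp16 by 0.67 ± 0.07 (adjusted p = 0.000121) and Kcne2 by 0.76 ± 0.08 (0.000302). Both were thus called without the 3 low-marker libraries. In the pair of WT and other libraries closest in score, WT replicate 1 (5.52) had 14.6 RPKM of Kcne2 and 22.1 of Clic6, and Dp16 replicate 1 (5.51) had 22.5 and 32.9.

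The MHC class II genes, singled out after their values were seen, were called in Dp16_2xIFNRs against WT only where the low-marker libraries were left out or the score was in the model, among these 3 fits. H2-Ab1 stood at 2.00 to 2.75 RPKM in the 5 other WT libraries, 2.66 to 4.32 in the 5 of Dp16 and 4.26 to 6.74 in the 4 of Dp16_2xIFNRs. Its level in the low-marker libraries was 0.821, 0.686 and 2.37 RPKM, below every other library of the same genotype. With 17 libraries H2-Ab1 was 1.13 ± 0.34 higher in Dp16_2xIFNRs than in WT with no call (adjusted p = 0.117). Without the 3 libraries it was higher by 1.16 ± 0.16 (adjusted p = 0.000981) and with the score by 1.22 ± 0.16 (0.000175). H2-Eb1, Cd74 and H2-Aa had adjusted p of 0.144, 0.146 and 0.151 with 17 libraries, and of 0.00324, 0.0135 and 0.0136 without the 3, at log2 differences of 0.96 ± 0.15, 1.01 ± 0.19 and 1.03 ± 0.19. In these 4 genes the difference moved by less than its error, and the error was smaller without the 3 libraries. The 4 genes were low in those 3 libraries, so a smaller error follows from leaving them out. In the 14 others with the score all 4 were called too, with adjusted p from 0.000512 to 0.00225. For Dp16 against WT, H2-Ab1 and H2-Eb1 were called only with the score over 17 libraries (edgeR, adjusted p = 0.0422 and 0.0163), and not with the score over the 14 (0.0622 and 0.134). The part of the choroid plexus in these genotype differences was not tested. Dp16_2xIFNRs against Dp16 gave no call in any of the 3 fits, with adjusted p from 0.363 to 0.629 for these 4 genes.

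**Figure D5:**
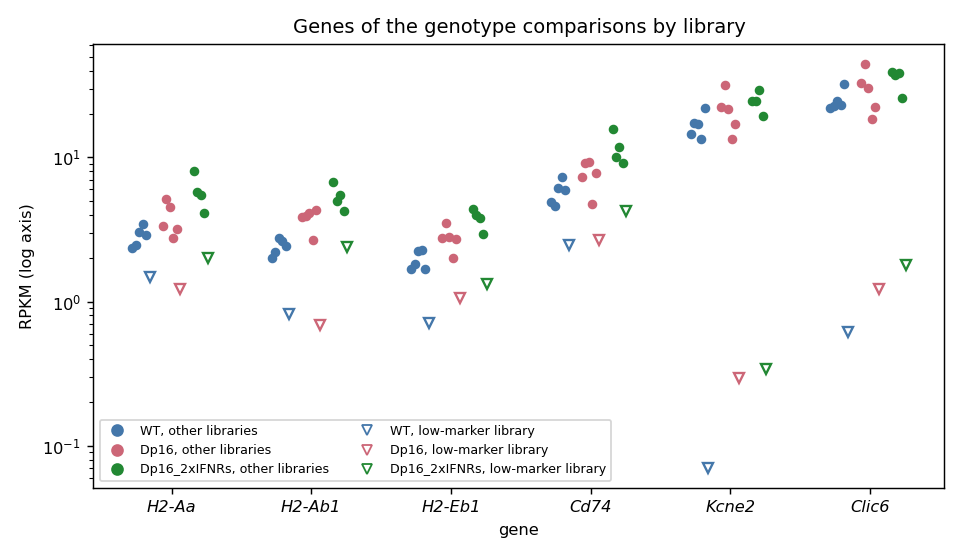
RPKM (log axis) of 4 MHC class II pathway genes, Kcne2 and Clic6 in the 17 libraries by genotype, with low-marker libraries as open triangles. In each gene the triangle lies below all filled points of its own genotype, such as 2.37 RPKM against 4.26 to 6.74 for H2-Ab1 in Dp16_2xIFNRs.

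Il10rb, a chain of the interleukin 10 and type III interferon receptors that lies in the duplicated segment at 91406164 to 91425834 of chromosome 16, was also named after its values were seen. It stood at 3.58 RPKM in the low-marker library of WT, 4.44 in that of Dp16 and 3.77 in that of Dp16_2xIFNRs, each below all others of its genotype, which ran from 4.23 to 5.00, 6.18 to 7.06 and 4.18 to 4.70. In Dp16_2xIFNRs against Dp16 it was lower by 0.56 on the log2 scale with 17 libraries, without a call (adjusted p = 0.277). Without the 3 low-marker libraries the difference was -0.61 ± 0.08 (adjusted p = 0.00911) and with the score -0.56 ± 0.08 (0.00349). Both of these fits use the choice of the 3 libraries, in which Il10rb was low, and are a description. The other 3 interferon receptor chains differed between low-marker and other libraries by -0.24 ± 0.07 (Ifnar2), -0.04 ± 0.06 (Ifnar1) and 0.03 ± 0.07 (Ifngr2), with no call. Slc6a12, the betaine and GABA transporter, was higher in Dp16 than in WT by 1.38 ± 0.28 without the 3 libraries (adjusted p = 0.0294) and by 1.22 ± 0.29 with 17, where it was not called (0.0759). With the score it was not called either (adjusted p = 0.06 over 17 libraries and 0.379 over the 14 others). In Dp16 it was lowest in the low-marker library, at 0.207 RPKM against 0.350 to 0.876. In the other genotypes the low-marker library lay within the range of the others. It stood at 0.2325 RPKM against 0.148 to 0.2941 in WT, and at 0.7445 against 0.6176 to 0.7907 in Dp16_2xIFNRs.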

How the data were processed

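Poly-A RNA of 17 hippocampi was sequenced by the authors with a strand-specific kit, per the labels' protocols. The submitters' processing notes name HTSeq 0.6.1, HISAT2 2.1.0, SAMtools 1.5, FastQC 0.11.5 and bcl2fastq, with GRCm38 as build. Deposited by the authors were unnormalized counts and RPKM of 55385 genes. Solved from the counts, RPKM gave 1 gene length per gene over all libraries. How reads were assigned by strand, and which gene length was used, is not given in the sources used here, so overlapping, antisense and near-identical genes (H2 genes, Sult1c1 and Sult1c2, defensins, protocadherins) are less certain.

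Counts were fitted in R 4.3.3 with edgeR 4.0.16 (TMM scaling, filterByExpr with a minimum count of 10, quasi-likelihood test, Benjamini-Hochberg adjustment over all tested genes, call at 0.05), with genotype and sex in the model. The fits were: the 3 low-marker libraries against the other 14 (12 residual degrees of freedom); the slope on the marker score in the 14 others (9 residual degrees of freedom); and the genotype comparisons with 17 libraries, 14 libraries, or the score as covariate. No p is printed for the 5 marker genes, which stay in the fits over all genes. The biological coefficient of variation was 12% in both of the first fits, above counting error for well expressed genes, and intervals from counts cover counting error only. RPKM are printed for levels and count fits for differences.

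The low-marker libraries, the gene lists and the rule for named genes were chosen with earlier results of these data known. The rule named the markers, up to 6 genes per choroid list and up to 4 per other list by mean RPKM, the 10 most negative and positive called genes outside the lists with a mean of at least 1 CPM and a full name (no clone or Gm names), and choroid genes called between genotypes. Other named members of the lists were picked after their values were seen. The code was tested on simulated data. Alternatives were DESeq2 1.42.0 (size factors, and its test), limma-voom and limma-trend on RPKM (limma 3.58.1), other filters and covariates, a threshold of 0.1, a replicate block and leaving out each library. The score among the 14 others in the genotype comparisons was added after seeing the data. Promoters came from RefSeq.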

Additional observations from a re-analysis of the deposited data

Results flagged for a closer look

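In groups of 4 to 10 libraries, a library was picked out when its gap to the nearest other, divided by the group's range, passed Dixon's 95% value. Chance does so for about 1 group in 20. There were 69 groups of gene lists and genotypes, and 10 gave such a library. Of these, 6 follow from the choice of the low-marker libraries and show nothing beyond it: the score and the choroid lists in each genotype. The marker score was 0.41 in WT replicate 6, 0.36 in Dp16 replicate 6 and 1.15 in Dp16_2xIFNRs replicate 5. The mean log2(RPKM + 0.1) over the 122 tested choroid genes apart from the markers was 1.06 in WT replicate 6 (others 2.59 to 2.94), 1.14 in Dp16 replicate 6 (2.26 to 2.86) and 1.35 in Dp16_2xIFNRs replicate 5 (2.51 to 2.84). Fenestrated endothelium genes stood at 2.36 in Dp16 replicate 6, below the 2.63 to 2.76 of the other Dp16 libraries.

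The other 3 were not low-marker libraries and each was high. Mural cell genes stood at 1.97 in Dp16 replicate 3 (others 1.39 to 1.57). GABAergic interneuron genes stood at 4.18 in Dp16_2xIFNRs replicate 1 (3.97 to 4.02). Genes of thalamus and habenula stood at 3.10 in WT replicate 4 (1.73 to 2.14).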

How the results depend on the processing

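The count of 592 genes lower in the low-marker libraries was 1058 with no filter, and 357 to 632 when each library was left out in turn. The count of 83 choroid genes was 72 to 85 over left-out libraries, 89 with no filter and 87 by DESeq2. The 10 higher genes depended most on the processing: 19 by DESeq2, 6 by limma-voom, 3 or 4 by limma-trend with 0.1 or 1 added, 85 with no filter, 5 with age, 18 at a threshold of 0.1 and 1 to 17 over left-out libraries. The 54 positive slopes were 119 by DESeq2 and 13 to 63 over left-out libraries, with 10 to 37 choroid genes. The 0 negative slopes were 11 by DESeq2, 5 with no filter, 2 at a threshold of 0.1, 2 with Ttr alone as score and 0 to 2 over left-out libraries. Dp16 against WT had 102 called genes, 214 by DESeq2, 61 with the score among the 14 others and 81 to 112 over left-out libraries. Dp16_2xIFNRs against WT had 186, with 632 by DESeq2, 416 with no filter, 474 at a threshold of 0.1, 324 with the score and 101 (without Dp16_2xIFNRs replicate 3) to 517 (without Dp16_2xIFNRs replicate 1) over left-out libraries. Dp16_2xIFNRs against Dp16 had 3, with 6 by DESeq2, 14 with no filter and 3 to 4 over left-out libraries. The cause was not tested in these cases.

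A replicate block with the number of the labels left 12 lower genes, 0 higher, 10 choroid genes, 14 positive slopes and 9 of those in choroid lists, and 98, 143 and 4 genes in the genotype comparisons. By construction it leaves little to compare, since 2 of the 3 low-marker libraries are replicate 6. Under the replicate block Prdm16 changed sign, from -0.64 to 0.32. Whether the numbers pair the mice is not settled by these values. Same-numbered libraries correlated by 0.0772 on average (16 pairs, -0.216 to 0.471), and different-numbered ones by -0.0141 (80 pairs, -0.42 to 0.515). For 5 of 17 libraries the most alike library of another genotype had the same number. Depth limits genes with few counts in the 3 libraries, for which only a counting interval can be given.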

Other observations

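Ins2, the gene of insulin 2, had 0 counts in all 3 low-marker libraries and a mean of 0.647 CPM in the 14 others. It fell under the minimum level for named genes and is given because of its name, after its values were seen. Its slope on the score in the 14 other libraries was 0.32 ± 0.53 (edgeR, adjusted p = 0.936). 2900040C04Rik, a long noncoding RNA, was among the more abundant of the strongly lower genes, with a mean of 0.256 CPM in the low-marker libraries and 9.22 CPM in the others, a log2 difference of -5.09 ± 0.31. Cox8b, a subunit of cytochrome oxidase known from muscle, had 0.299 and 3.82 CPM, a difference of -3.60 ± 0.44. These genes too were named after their values were seen, and the difference is a description.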
